A study of Saccharomyces cerevisiae with 4 samples.

Results

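PPR1 and 9 genes of pyrimidine synthesis and uridine uptake were followed in wild-type budding yeast (Saccharomyces cerevisiae) treated with Zymolyase, a mixture of enzymes that attacks wall glucan. The 10 genes were taken by their systematic names from a table of 6207 open reading frames (ORFs): the regulator PPR1 (YLR014C), the synthesis genes URA1 (YKL216W), URA2 (YJL130C), URA3 (YEL021W), URA4 (YLR420W), URA5 (YML106W), URA10 (YMR271C) and URA6 (YKL024C), and the permease genes FUR4 (YBR021W) and FUI1 (YBL042C). Each was on the array, and 9 had a value on all 4 arrays; URA10 had 3 values. The question was whether the genes that Ppr1 controls follow PPR1.

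Cells were grown in the rich medium YEPD at 24 °C and each culture was divided. One part received Zymolyase 100T at 5 units/ml for 3 h and the other was left untreated, and both carried the same wild-type genotype. Per the labels, RNA of 2 cultures was hybridised on dye-swapped pairs of two-colour arrays, 4 arrays in all, with treated RNA on Cy3 in arrays 1 and 3 and on Cy5 in arrays 2 and 4. The labels name no strain and no marker mutations, so it is not known here whether URA3 is intact in these cells.

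As background, budding yeast makes UMP in a chain of enzyme steps and turns it into UTP and CTP, and from UTP come the UDP-sugars that feed wall glucan and chitin. Ppr1 is a zinc cluster transcription factor that is known to activate URA1, URA3, URA4 and URA10. Its activity is known to rise when intermediates of the pathway, dihydroorotate and orotate, accumulate, whereas URA2 and its product are known to be held back by UTP.

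Values are log ratios of treated and untreated RNA, read as log2, with the sign of the dye-swapped arrays turned. Which channel is the numerator is not labelled, so the overall sign was set by SLT2, the kinase gene of the cell wall integrity pathway, which had 2.14, 2.39, 2.18 and 2.31 on arrays 1 to 4. Positive values therefore lie on the side of SLT2, negative ones opposite to it, and neither side is stated to be higher after treatment. SLT2 is known to be induced by wall damage. Calls are from limma over the 4543 ORFs with 4 values, with the arrays of a culture averaged (n = 2 cultures) and a threshold of 0.05 on the Benjamini-Hochberg adjusted p. Errors are SDs over the 4 arrays, which include the dye. Up to 21.3% of ORFs had no value on an array, array medians lay between -0.05 and 0.02, and turned arrays correlated at r = 0.08 to 0.74 across ORFs, which are not independent replicates. Spot intensities were not used here, so how far a ratio rests on dim spots is unknown.

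PPR1 changed strongly on the side of SLT2, while none of the genes known as its targets did. FUI1, the uridine permease gene, changed to the opposite side. Of the 9 members with 4 values, 1 was called on the side of SLT2, against 4.56% of all ORFs tested, and 1 opposite, against 1.39% (5.94% on either side). The other 7 did not pass the test. All 7 had a negative mean, as had 2578 of the 4543 ORFs tested.

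PPR1 had 2.20 on array 1, 2.66 on array 2, 2.25 on array 3 and 2.34 on array 4. All 4 arrays were high and close together, in both dye orientations. The mean was 2.36 ± 0.21, a 5.14-fold difference with a 95% interval of 2.08 to 2.64 on the log2 scale (limma, adjusted p = 2.48e-05). In total RNA of a culture, the number of cells with a transcript and its amount per cell cannot be told apart. The mean was the 12th highest of 4543, and on single arrays PPR1 was between the 13th and the 19th highest of all ORFs with a value.

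**Figure D1:**
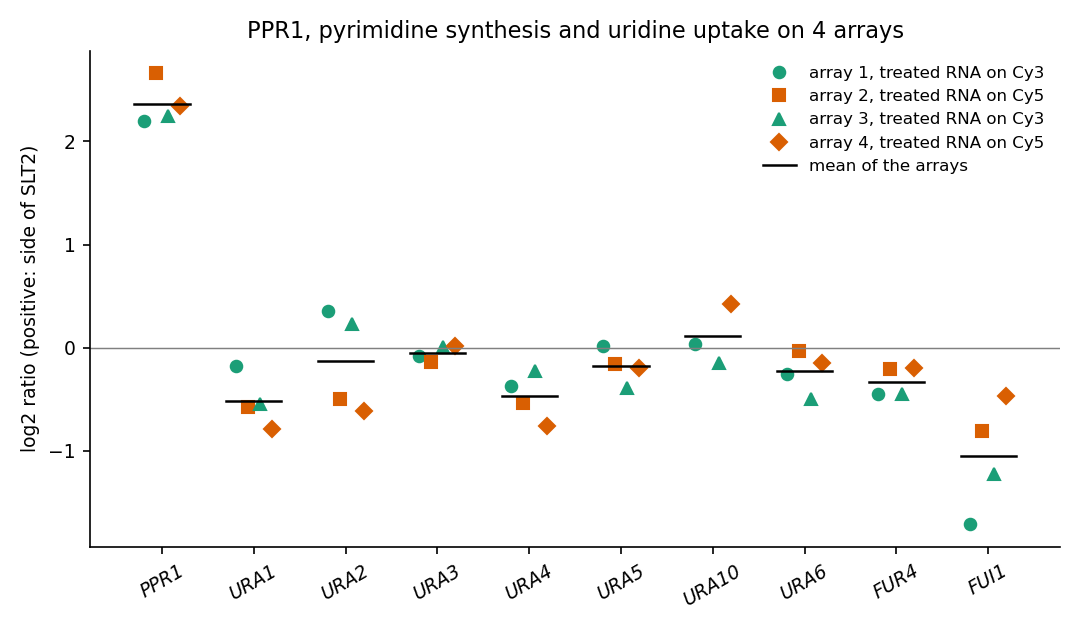
Log2 ratio (vertical axis, positive on the side of SLT2) of the 10 members on each array; colour gives the dye of the treated RNA, marker shape the array, and the black line the mean of the arrays with a value. PPR1 lies between 2.20 and 2.66, FUI1 between -1.71 and -0.47, and the 8 other genes between -0.79 and 0.42.

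The Ppr1 targets were listed as URA1, URA3, URA4 and URA10. URA1 encodes dihydroorotate dehydrogenase, which makes orotate, and had -0.18, -0.58, -0.55 and -0.79 on arrays 1 to 4. URA4 encodes dihydroorotase, the step before it, and had -0.37, -0.54, -0.23 and -0.76. Both genes were negative on every array, the side away from PPR1, and lowest on array 4. Their means were -0.52 ± 0.25 for URA1 and -0.47 ± 0.23 for URA4, 1.44-fold and 1.39-fold in size. Both narrowly missed the threshold in limma (adjusted p = 0.0573 and 0.0603). URA1 had the 75th lowest mean of the 4543 ORFs and URA4 the 116th lowest. Both calls depended on the setting, since URA1 passed in 5 and URA4 in 4 of 13 other settings in limma. Over these the adjusted p ran from 5.42e-04 to 0.141 for URA1 and from 0.00142 to 0.175 for URA4, lowest when arrays 1 and 4 and arrays 2 and 3 were taken as the cultures.

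URA3, which encodes the orotidine phosphate decarboxylase that makes UMP, had -0.08, -0.14, 0.01 and 0.02. Its 4 values lay on both sides of 0 and within 0.16 of each other. The mean was -0.05 ± 0.08 with a 95% interval of -0.33 to 0.23 (limma, adjusted p = 0.885). URA10, a gene for orotate phosphoribosyltransferase, had 0.04 on array 1, -0.15 on array 3 and 0.42 on array 4, and no value on array 2. Its signs were mixed and it did not enter the test. In a fit that admits ORFs with 3 values and has a dye term, URA10 had 0.19 (95% interval -0.10 to 0.47; limma, adjusted p = 0.369).

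The change of each of the 3 targets with 4 values differed from that of PPR1. With the value of PPR1 on the same array subtracted, URA1 stood at -2.89 (95% interval -3.16 to -2.61), URA4 at -2.83 (-3.11 to -2.56) and URA3 at -2.41 (-2.73 to -2.09). The adjusted p in limma was 1.21e-04 for URA1 and URA4 and 1.48e-04 for URA3. URA10 stood at -2.10 (-2.51 to -1.68) in the fit with 3 values. That fit took arrays as independent, and array 4 was the only one with treated RNA on Cy5 that had a URA10 value. All 8 members tested against PPR1 passed, but so did 99.6% of all ORFs, so nothing in this difference is particular to the targets. Among the 3 targets with 4 values, the highest upper bound on the change itself was 0.23, for URA3, below the lower bound of 2.08 for PPR1. The tested targets thus did not follow PPR1, and limma called 0 of the 3 on either side, while 2 had an unadjusted p under 0.05, as 19.3% of all ORFs had. The targets had a median of -0.47, beside -0.03 over all ORFs tested.

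**Figure D2:**
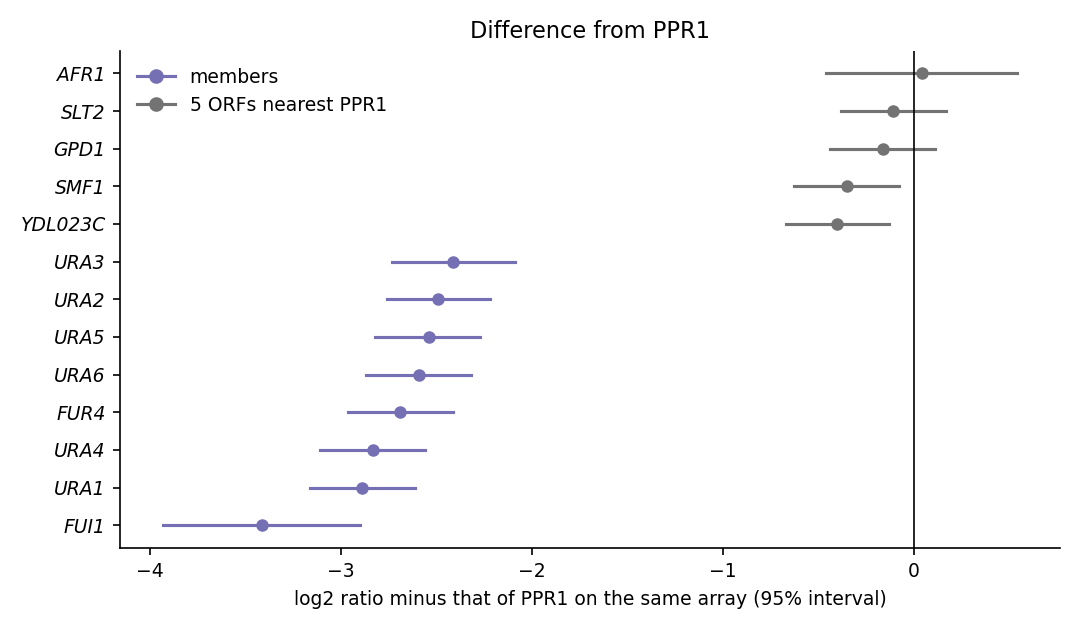
Log2 ratio minus that of PPR1 on the same array (horizontal axis) for the 8 members tested and the 5 ORFs nearest PPR1; points are means and bars 95% intervals, the wider of both culture pairings. The members lie between -3.41 and -2.41, while AFR1, SLT2 and GPD1 have intervals that include 0. The 5 ORFs were picked for closeness to PPR1 on these arrays, so their small differences follow from the choice.

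The synthesis genes outside the target list showed small values too. URA2 encodes the enzyme with carbamoyl phosphate synthetase and aspartate transcarbamylase activities that opens the pathway, and had 0.36, -0.50, 0.23 and -0.61. It was positive on both arrays with treated RNA on Cy3 and negative on both with it on Cy5. Its mean of -0.13 ± 0.49 (limma, adjusted p = 0.647) holds 2 arrays of each orientation, so an additive dye effect cancels in it, and its 95% interval was -0.41 to 0.15. The orientation means differed by 0.84, with an unadjusted p of 0.00207 and an adjusted p of 0.116 for the dye term in limma. The dye term came from a fit that took the 4 arrays as independent, which dye-swapped pairs are not. No ORF passed for that term (0% of 4543), although 979 had an unadjusted p under 0.05.

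URA5, which encodes the major orotate phosphoribosyltransferase, had 0.02, -0.16, -0.39 and -0.20. URA6, which encodes the kinase that turns UMP into UDP, had -0.26, -0.03, -0.50 and -0.15. Array 3 was the lowest for both genes, and URA6 was negative on each array. The means were -0.18 ± 0.17 (95% interval -0.47 to 0.11; limma, adjusted p = 0.497) and -0.23 ± 0.20 (-0.52 to 0.05; adjusted p = 0.362). URA5 and URA10 are related genes, and probe sequences were not used here, so part of their signal may be shared.

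The permease genes were both negative throughout. FUI1 had -1.71 on array 1, -0.81 on array 2, -1.22 on array 3 and -0.47 on array 4. FUR4, the uracil permease gene, had -0.45, -0.21, -0.45 and -0.20. FUI1 was lower than FUR4 on every array, and the difference between them was not tested. The mean of FUI1 was -1.05 ± 0.54, a 2.08-fold difference (95% interval -1.38 to -0.73; limma, adjusted p = 0.00318) and the 8th lowest of 4543. FUR4 had a mean of -0.33 ± 0.14 (95% interval -0.60 to -0.05; adjusted p = 0.176).

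The size of FUI1 differed between the dye orientations, though its dye term did not pass adjustment. It had a mean of -1.47 on the arrays with treated RNA on Cy3 and -0.64 on those with it on Cy5. The difference was -0.83, with an unadjusted p of 0.0128 and an adjusted p of 0.161 for the dye term in limma. That fit, too, took the arrays as independent. On array 3 FUI1 was the 8th lowest ORF and on array 4 the 515th lowest. The call ended when each array was centred on its median over all ORFs with a value (-1.03, adjusted p = 0.0509 in limma, the highest of 13 other settings, the lowest being 2.95e-08), which also moved the calls of all ORFs from 207 and 63 to 123 and 8 on the side of SLT2 and opposite.

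**Figure D3:**
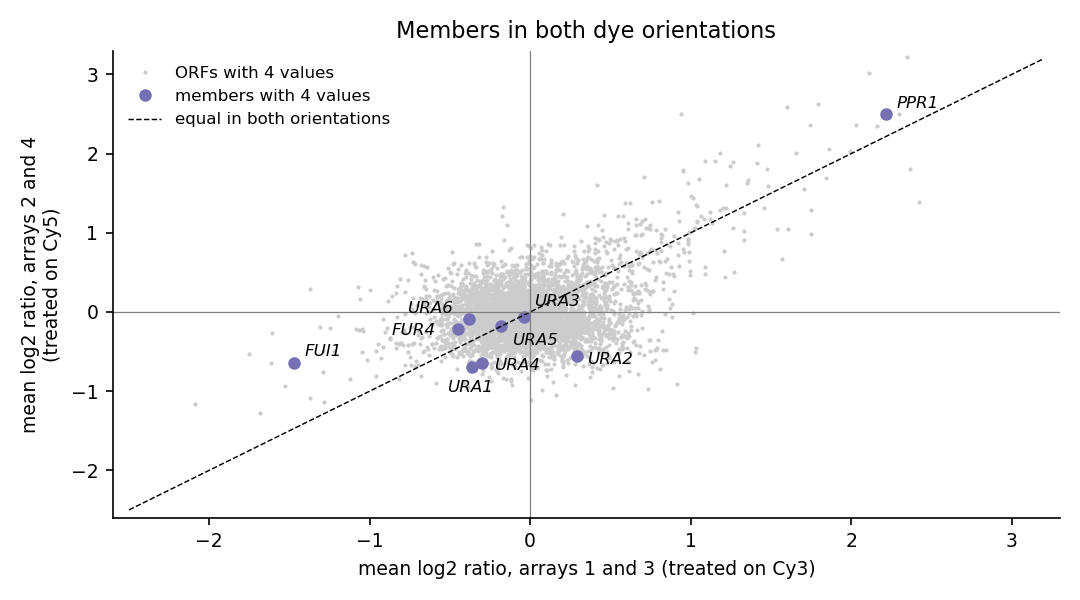
Mean log2 ratio of arrays 1 and 3 (horizontal axis, treated RNA on Cy3) against that of arrays 2 and 4 (vertical axis, treated RNA on Cy5) for ORFs with 4 values (grey; 8 lie outside the axes) and the 9 members with 4 values (purple). PPR1 lies near the line of equal values, FUI1 is further from 0 on Cy3, and URA2 has opposite signs.

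Without PPR1, most values of the members were negative. Of the 8 with 4 values, 5 were negative on each array (URA1, URA4, URA6, FUR4 and FUI1) and 0 positive on each, against 15.3% and 13.1% of all ORFs. The median of the 8 means was -0.28, beside -0.03 over all ORFs tested. By array, 6 of 9, 8 of 8, 7 of 9 and 7 of 9 values were negative on arrays 1 to 4, where 47.2%, 54.4%, 57.1% and 52.8% of all ORFs were.

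Genes of pyrimidine salvage and interconversion gave 2 calls opposite to SLT2 and 0 on its side among 17 of 18 listed genes with 4 values, against 1.39% and 4.56% of all ORFs, with a median of -0.05. FCY2, the permease gene for purine bases and cytosine, had -0.64, -0.43, -0.86 and -0.71, a mean of -0.66 ± 0.18 (limma, adjusted p = 0.0207). URA7, which encodes the major CTP synthase, had -0.73, -0.65, -0.38 and -0.59, a mean of -0.59 ± 0.15 (adjusted p = 0.0304). Neither gene had a positive value on any array. Its minor counterpart URA8, named after its values were seen, had -0.35, 0.16, 0.14 and 0.53, with mixed signs. The highest mean of the list was that of PHM8, a nucleotidase gene, at 0.40 ± 0.21 (adjusted p = 0.127). FCY2 did not pass without array 3, without array 4 or with arrays centred over all ORFs, where its value was between -0.64 and -0.59. URA7 did not pass without array 1, 2 or 4 or with arrays centred in either way, with values between -0.60 and -0.50; the fits without an array also took the remaining 3 as independent.

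CPA1, which encodes a subunit of the enzyme that makes carbamoyl phosphate for arginine, had -0.29 ± 0.23 (limma, adjusted p = 0.247). Of 5 listed permease genes related to FUR4 and FUI1, 3 had 4 values and 0 passed in limma. THI7, a thiamine transporter gene, was the lowest with -0.45 ± 0.44 (adjusted p = 0.0708) and NRT1 the highest with -0.27 ± 0.54 (adjusted p = 0.370); TPN1 was between them. All 3 had negative means, and DAL4 and THI72 had no value on any array. The means differed by dye orientation. With treated RNA on Cy3 and on Cy5, THI7 had -0.83 and -0.07, NRT1 -0.66 and 0.12, and TPN1 -0.56 and -0.30. The unadjusted p was under 0.05 for 2 of the 3, THI7 and TPN1, and for 19.3% of all ORFs.

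UGP1, which encodes the enzyme that makes UDP-glucose from UTP, lay on the side of SLT2, the side away from FUI1. It had 0.81, 0.68, 0.46 and 0.35, a mean of 0.58 ± 0.21 (limma, adjusted p = 0.0446), the only call among 5 listed genes of the UDP-sugar route. The lowest mean there was that of HUT1, a UDP-galactose transporter homologue gene, at -0.32 ± 0.13 (adjusted p = 0.194). UGP1 did not pass in 6 of 13 other settings, namely quantile normalization, both ways of centring and leaving out array 1, 2 or 3, with values between 0.49 and 0.66.

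Calls among the other zinc cluster factors listed were near the share over all ORFs. Of 39 such genes 21 had 4 values, and limma called 0 of these, against 5.94% of all ORFs, while 4 had an unadjusted p under 0.05, against 19.3%. Their means ran from -0.38 ± 0.33 for STB5, a regulator of oxidative stress genes, to 0.18 ± 0.76 for HAP1, a haem-responsive activator gene. The median was -0.17, beside -0.03 over all ORFs tested. Of the 21 means, 19 were negative, against 2578 of 4543 over all ORFs, so a lean to negative means was not particular to the members. Negative values on each of 4 arrays were found for 3 of the 21, against 15.3% of all ORFs and 5 of 8 members other than PPR1. HAP1 had 0.83, -0.43, 0.84 and -0.53 on arrays 1 to 4, so its sign followed the dye. Each of the 21 differed from PPR1 in limma, as did 99.6% of all ORFs.

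**Figure D4:**
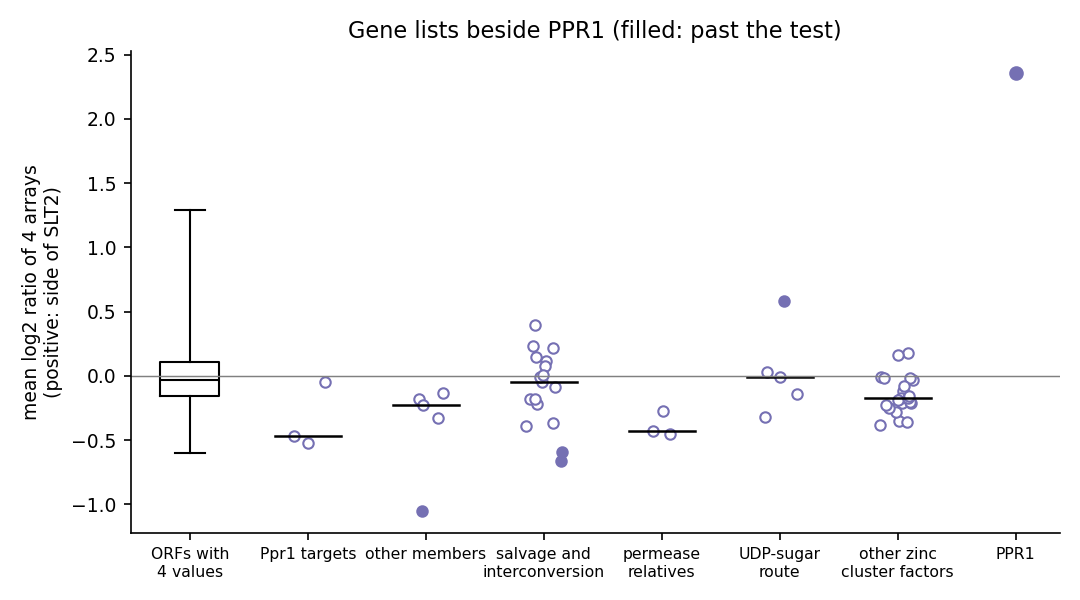
Mean log2 ratio of 4 arrays (vertical axis) for each tested gene of 6 lists and for PPR1, with the list median as a line and genes past the test filled; the box of all ORFs with 4 values spans the 25th to 75th percentile and its whiskers the 1st to 99th (-0.60 to 1.29). PPR1 is above the upper whisker, FUI1 is below the lower one, and the Ppr1 targets have a median of -0.47.

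Beside PPR1 in the RefSeq annotation lie BRE2 and GAT3. BRE2, a histone methylation gene that diverges from PPR1, had -1.02, -0.40, -0.73 and -0.26, negative on every array. Its mean was -0.60 ± 0.34 (limma, adjusted p = 0.0284), a call opposite to PPR1 that ended in 5 of 13 other settings, among them both ways of centring and leaving out array 1 or 2, with values between -0.60 and -0.53. GAT3, on the other side, had 0.18 ± 0.16 (adjusted p = 0.494). Beside FUI1, the proteasome gene PRE7 had 0.14 ± 0.26 (adjusted p = 0.634), and ECM13 had 0.71 on array 2 and no other value. None of these genes overlaps PPR1 or FUI1 in the annotation.

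By the root mean square difference over 4 arrays, the 5 ORFs nearest PPR1 were SLT2 (0.14), GPD1 (0.25), SMF1 (0.37), YDL023C (0.40) and AFR1 (0.41). GPD1 encodes an enzyme of glycerol synthesis and SMF1 a manganese transporter. The differences of SLT2, GPD1 and AFR1 from PPR1 did not pass in limma, with 95% intervals of -0.38 to 0.17, -0.44 to 0.11 and -0.46 to 0.54. SMF1 and YDL023C were lower than PPR1 in limma, with differences of -0.35 (adjusted p = 0.0159) and -0.40 (adjusted p = 0.0123). Their own 95% intervals, 1.73 to 2.29 and 1.69 to 2.24, overlapped that of PPR1 (2.08 to 2.64). Every row of the difference fit shares the values of PPR1, so its intervals may be too narrow for these calls. These 5 ORFs were picked for closeness to PPR1 on the same arrays. Small differences follow from that choice, so the fit cannot show that they change as PPR1 does. The 5 nearest FUI1 were ENB1 (0.16), PLB2 (0.22), AGA1 (0.23), INA1 (0.24) and TIR3 (0.25), each further from 0 on arrays 1 and 3 on average than on arrays 2 and 4, as FUI1 was. ENB1 is a siderophore transporter gene, AGA1 an agglutinin gene and TIR3 a wall mannoprotein gene. Arrays shared by all ORFs enter these likenesses, which are descriptions, and the likeness itself was not tested.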

How the data were processed

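The authors deposited 1 table of log ratios of both channels per ORF; its scale, centring and normalization are not given in the sources. The values were read as log2, as in the deposited table the largest absolute value of 10.72 would exceed the range of a scanner in log10, whereas natural logs are not told apart from log2; every fold rests on this. Deposited columns of opposite dye orientation correlated at r = -0.52 to -0.08, so signs were turned by the labelled dyes. Of 6209 rows, 2 control rows were left out. RefSeq (assembly R64) named 5654 of 6207 ORFs by locus tag; the array's build is not given, so no coordinates or sequences are printed.

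Which arrays come from the same culture is not labelled, so both pairings of opposite dyes were fitted with limma 3.58.1 (R 4.3.3, lmFit and eBayes) on culture averages, and each ORF kept its larger p and wider 95% interval; Benjamini-Hochberg adjustment ran over ORFs with 4 values. The same fit ran on each ORF minus PPR1. There all rows share the values of PPR1 and are not independent, which the variance drawn from all ORFs does not take into account. The p-values rest on the spread between 2 culture averages under assumed pairings. With 2 averages, limma draws that spread towards a variance estimated over all ORFs. They therefore do not measure the spread of a single gene alone, and the number of arrays limits precision. The fit was tested on simulated data. Members and lists were chosen with earlier results of these data known. Named genes are all members, list genes past the threshold or with the highest or lowest mean of a list, the neighbours of PPR1 and FUI1, the 5 ORFs nearest each, and SLT2. Outside that rule, URA8, TPN1, DAL4, THI72, RSC30, FCY1 and FUN26 were named after their values were seen. The alternatives are in the closing section; centring over ORFs with 4 values and the test of the dye term were added after seeing the data.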

Additional observations from a re-analysis of the deposited data

How the results depend on the processing

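PPR1 passed on the side of SLT2 in all 14 alternatives (2.28 to 2.46) plus centring over ORFs with 4 values, and all members tested differed from PPR1 in each. The count of members called opposite was 1. It was 0 with arrays centred over all ORFs, 2 with quantile normalization, 5 with arrays 1 and 4 and 2 and 3 as the cultures, 4 with arrays taken as independent and a dye term, and 3 with ORFs of 3 or more values, robust empirical Bayes or a threshold of 0.1. It was 1 without any single array. Counts over all ORFs, 207 on the side of SLT2 and 63 opposite, became 598 and 631 with that pairing, 319 and 193 with a dye term, 338 and 189 with 3 or more values, 358 and 225 with robust empirical Bayes, 123 and 8 with centring (93.9% on the side of SLT2 against 76.7%), and 120 and 13 at a threshold of 0.01. At 0.1, 153 lay opposite, and with centring over ORFs with 4 values, 27. Without single arrays, 150 to 196 and 33 to 63 were called. None of the 9 members with 4 values changed sign in any alternative, URA10 had a value in 2 of them, and the cause of the moved counts was not tested. The fits without 1 array and those with a dye term took arrays as independent, which the dye-swapped pairs are not.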

Other observations

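RSC30, a zinc cluster gene of the chromatin remodelling complex RSC, had no value on array 2 and did not enter the test. Its turned values were -2.83 and -2.48 on arrays 1 and 3 and 1.86 on array 4, so its sign followed the dye orientation. FCY1, the cytosine deaminase gene (0.19, -0.50, 0.04 and -0.62 on arrays 1 to 4), and FUN26, a nucleoside transporter gene (-0.60, 0.33, -0.46 and 0.53), also had opposite signs in the 2 dye orientations, as URA2 and HAP1 had. These genes were named after their values were seen, and they are not all of the listed genes with opposite signs by dye.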
